A study of Mus musculus with 45 samples.

Results

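YEJH-M1 is 1 of 5 cell lines that were grown out of lung micrometastases of the PyMT+ mammary tumour line YEJH. Its 3 libraries were chosen by their titles and set against the 12 libraries of YEJH-M2, YEJH-M3, YEJH-M4 and YEJH-M5, out of 45 libraries of 15 lines in the table. PyMT+ lines come from mammary tumours of MMTV-PyMT mice, which carry the polyomavirus middle T antigen under a promoter active in mammary epithelium, on an FVB/N background. YEJH cells were transplanted into the mammary fat pad, which gave the tumour lines YEJH-FP1 to YEJH-FP5, and lung micrometastases that formed after the primary tumour was resected gave the lines YEJH-M1 to YEJH-M5. No line received a treatment, all carry PyMT, and RNA was taken from cells plated a day earlier and grown to near confluence. The labels call the tissue of YEJH-M1, M2, M4 and M5 whole lung and that of YEJH-M3 lung metastases, although all 5 are cultured lines. The 3 libraries of a line are technical repeats, so each test between libraries measures a difference against the technical spread, and YEJH-M1 itself is a single line. Whether each line descends from 1 cell or many was not given in the labels.

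Lines derived from separate metastases of 1 tumour start from a shared ancestor, and each then carries the state of the cells that founded it. Tumour cell lines can differ from one another in signalling genes, in the stress programmes active in culture and in the copy number of whole chromosomes. Polyomavirus middle T antigen acts at the cell membrane as a scaffold for Src family kinases, Shc and phosphatidylinositol 3-kinase, so it works much like an activated growth factor receptor. Tumours that it drives in the mouse mammary gland are luminal adenocarcinomas that spread to the lung.

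Depth ran from 9723860 to 16922450 counted reads per library, and the first YEJH-M1 repeat was the shallowest. The libraries fell into 2 runs by the prefix of their names, with 7 libraries in the one and 8 in the other, and 1 YEJH-M1 library was in run A. Run entered the fit as a covariate. Repeat 2 of YEJH-M3 stood apart, with 43.3% of its reads left unassigned to genes, and the main count is also given without it. A library whose name reads YEJH M1 but whose title reads YEJG-M1 was placed by its title and not used here. Over the 13599 genes tested, centred on the libraries of run A, it had a correlation of 0.861 with YEJG-M1 repeat 3 and of -0.241 with YEJH-M1 repeat 2, all 3 from the same run. The libraries carried the epithelial genes Epcam, Krt8, Krt18 and Cdh1, each above 300 CPM (counts scaled to a common library total) in all 15. The oestrogen receptor gene Esr1 ran from 4.35 to 8.10 CPM. The list of 30 luminal genes, 4 of them at 0 in all 15, summed to 11310 CPM in YEJH-M1 and 8931 to 10925 in the other 4 lines. For 20 basal genes the sums were 2255 and 1957 to 2293, and for 21 mesenchymal genes 2012 and 2066 to 2713. The defining genes of alveolar and club cells, fat cells and male cells (Sftpc, Scgb1a1, Adipoq and Ddx3y) had 0 reads, and Ptprc, Pecam1 and Col1a1, which mark leukocytes, endothelium and fibroblasts, stayed under 1 CPM. Pdgfra, another fibroblast marker, ran from 1.71 to 4.85 CPM, with the highest value in a YEJH-M1 library. Summed over whole lists, CPM in YEJH-M1 and across the other 4 lines were 8.28 against 6.85 to 9.64 for 18 leukocyte genes, 7.84 against 4.84 to 8.79 for 11 endothelial genes, 21.7 against 19.4 to 52.0 for 12 lung epithelial genes, 6.30 against 2.70 to 5.25 for 12 fibroblast genes and 0.0784 against 0.0225 to 0.196 for 7 fat cell genes. The part of such cells in the results was not tested.

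YEJH-M1 differed from the other lung lines in many genes, but far fewer separated it from all of them. In total, 2040 of 13599 genes tested differed from the mean of the other lines at an adjusted p under 0.05 (edgeR), of which 1037 were higher (7.63%) and 1003 lower (7.38%). Of these, 360 differed at least 2-fold, 205 upwards and 155 downwards. The count was 590 with limma and an estimated correlation within lines, 1303 in run A alone, 300 in run B alone and 1280 without YEJH-M1 repeat 2. The fitted level of YEJH-M1 lay outside the range of the 4 other lines in 7101 genes (52.2%). It lay apart, that is outside the range and with a gap to the nearest line that passed an adjusted p of 0.05 (edgeR, the largest of the 4 p-values), in 254 genes, 99 above (0.728%) and 155 below (1.14%). In 247 of the 254 the YEJH-M1 libraries did not overlap the other 12, as was so in 1040 of all genes tested (7.65%). The 254 were chosen for a gap of these same libraries, so a high share is built into the choice. Leaving out 1 library at a time gave 113 genes apart (without YEJH-M1 repeat 2) to 477 (without YEJH-M3 repeat 2). With the counts of each line summed, so that the line was the unit, 0 of 16294 genes passed (0%; edgeR, 1490 at an unadjusted p under 0.05), with the smallest adjusted p at 0.144. The same test gave 288 genes with DESeq2 and 0 with limma. With the 5 fat-pad lines added as a group of their own, which share the estimate of the spread, 535 of 16568 genes passed (3.23%), 165 higher and 370 lower, among them 194 of the 254 genes that lay apart. The 194 shared genes rest on the same YEJH-M1 counts. Of the 535 genes, 254 are on chromosome 4 (not the same set as the 254 that lay apart), and 253 of those on chromosome 4 were lower. In bulk libraries a lower level can mean fewer cells of a type or less RNA per cell, and these cannot be told apart.

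Taken singly, YEJH-M4 was nearest to YEJH-M1, with 1029 genes called (7.57%; edgeR), followed by YEJH-M2 with 1366 (10%), YEJH-M3 with 1944 (14.3%) and YEJH-M5 with 2315 (17%), and these 4 comparisons share the YEJH-M1 libraries. Under the same definition of apart, YEJH-M2 lay apart from the 4 remaining lung lines in 105 genes (0.772%), YEJH-M3 in 6 (0.0441%), YEJH-M4 in 12 (0.0882%) and YEJH-M5 in 155 (1.14%), against 254 for YEJH-M1. At a gap of 2-fold or more the count was 85 for YEJH-M5, 69 for YEJH-M1 and 63 for YEJH-M2. It was 7 for YEJH-M4 and 2 for YEJH-M3. Of the 254 genes of YEJH-M1, 168 lie outside chromosome 4. The counts for YEJH-M3 rest on its 3 repeats, whose lowest correlation over the 13599 genes, centred on the 15 libraries and with run removed, was -0.10, against 0.47 for the repeats of YEJH-M1. Without repeat 2 of YEJH-M3, 477 genes lay apart in YEJH-M1 and 253 of the 254 were among them.

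Among genes with at least 50 normalised counts in some line, those with the widest gap above the other lung lines were led by Acan and Wnt10a. Acan (chr7:78702964-78764847, + strand, GRCm39) encodes aggrecan, the large proteoglycan of cartilage matrix. It had 402, 388 and 440.1 normalised counts in the 3 YEJH-M1 libraries (normalised counts are reads scaled to a common library size) and 0 to 53.2 (median 11.8) in the other 12. The YEJH-M1 libraries lay far above all others, and YEJH-M2 was almost without reads, at 0.876 on average. The log2 difference from the mean of the other lines was 5.49 (standard error 0.152, edgeR adjusted p = 9.01e-12), and the gap to the nearest line, YEJH-M3, was 3.24 on the log2 scale. The parental line stood at 129 and the fat-pad lines at 30.4 to 286, all below YEJH-M1.

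Wnt10a (chr1:74830675-74844355, + strand) encodes a secreted ligand of the Wnt pathway, which signals through Frizzled receptors. Its normalised counts were 483, 379 and 417 in YEJH-M1 and 2.56 to 71.0 (median 38.5) in the other 12 libraries. The log2 difference was 4.13 (standard error 0.106, edgeR adjusted p = 5.92e-12). Neither the parental line, at 6.77, nor the fat-pad lines, at 7.0 to 40.8, came near to YEJH-M1, so its level there was above that of every other YEJH line.

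Receptors and signalling enzymes followed. Adcy3, an adenylyl cyclase that makes cyclic AMP, had 86.0, 75.8 and 64.9 normalised counts in YEJH-M1 against 1.77 to 20 (median 9.86) in the other libraries. Notch3, a receptor of the Notch family, had 84.5, 68.2 and 57.8 against 13.3 to 35.4 (median 22.5). Both genes were also high in the parental line, at 66.7 and 56.1. The fat-pad lines stood at 22.8 to 51.4 for Adcy3, above the other lung lines, and at 9.61 to 22.5 for Notch3. Arg1, the arginase that splits arginine into ornithine and urea, had 286, 280.3 and 279.9 against 51.0 to 142 (median 75.6), with 3 nearly equal repeats. The chemokine Ccl9, which acts on myeloid cells, had 88.9, 94.1 and 113 against 11.9 to 49.7 (median 22.9). These 4 genes were chosen for their gap, and the libraries of YEJH-M1 and the other lung lines did not overlap in any of them.

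Further named genes that lay apart above were spread over roles in membranes and the cytoskeleton. Line means in YEJH-M1 and the range of the 4 other lines were 233 and 52.6 to 77.5 for Scamp5, a carrier membrane protein of secretory vesicles, and 199.6 and 25.8 to 75.5 for Abcb9, a lysosomal peptide transporter. Cdc42ep5, an effector of the GTPase Cdc42, had 59.5 against 5.91 to 27.5, and Arhgap8, which switches off small GTPases, had 80.8 against 13.1 to 36.7. Gcnt3, which branches mucin-type glycans, had 91.6 against 12.3 to 39.8. Gaps to the nearest line in these 5 genes ran from 1.14 to 1.59 on the log2 scale, and the adjusted largest p from 0.000728 to 0.00672 (edgeR). Arhgap8 was also above the other lung lines in the fat-pad lines, at 41.5 to 55.6, and Scamp5 in the parental line, at 149.5. Abcb9, Cdc42ep5 and Gcnt3 stood at 34.5, 19.5 and 18.9 in the parental line, inside the range of the other lung lines.

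**Figure D1:**
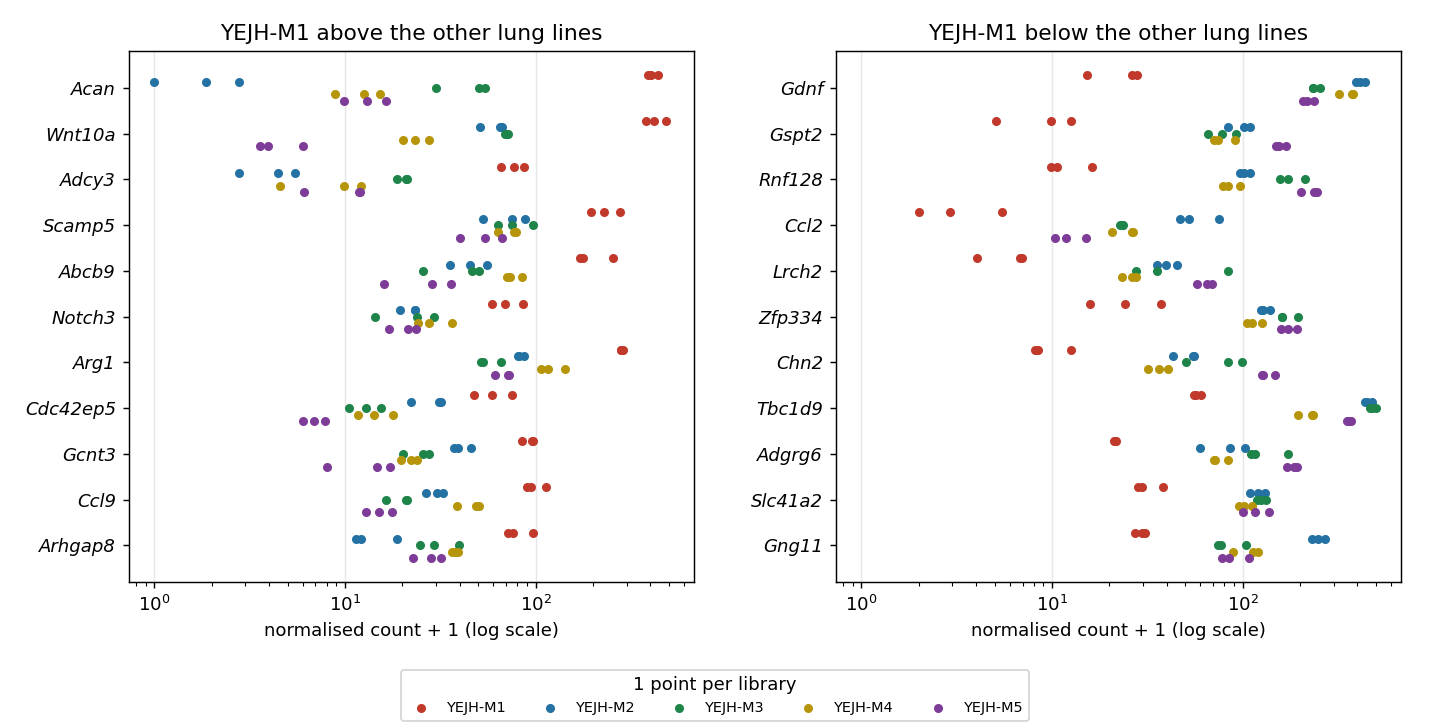
Normalised count plus 1 on a log scale in each of the 15 lung line libraries for 11 genes with the widest gap above (left) and 11 with the widest gap below (right) the other lines. Each point is 1 library, and the 3 YEJH-M1 points lie outside the other 12 in every gene shown, for example 402, 388 and 440.1 normalised counts of Acan against at most 53.2. The genes were chosen for their gap in these same libraries.

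On the lower side Gdnf had the widest gap of the named genes. It encodes the glial cell line-derived neurotrophic factor, a secreted ligand that signals through the receptor Ret (chr15:7840327-7867060, + strand). Its normalised counts were 25.2, 26.9 and 14.2 in YEJH-M1 and 206 to 439.8 (median 288) in the other 12 libraries. The log2 difference was -3.75 (standard error 0.15, edgeR adjusted p = 8.12e-10). The fat-pad lines, at 207 to 280.1, and the parental line, at 122, also lay above YEJH-M1.

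Of the other genes with a wide gap below, 3 lie on the X chromosome. Gspt2, a translation termination factor, had 8.89, 11.5 and 4.06 normalised counts against 64.9 to 168 (median 90.5). Its close relative Gspt1, with which it could share reads, stood at 3384 against 3405 to 3621 by line. Rnf128, an E3 ubiquitin ligase, had 8.89, 9.60 and 15.2 against 78.0 to 246 (median 132). Lrch2, a protein with leucine-rich repeats, had 5.93, 5.76 and 3.04 against 22.2 to 82.6 (median 36.7). In all 3 the parental line and the 5 fat-pad lines lay above YEJH-M1, with parental levels of 177, 137 and 70.8. Over all 439 genes tested on the X chromosome the median log2 difference was -0.03. Of these, 7 lay apart below (1.59%), near to the 1.14% of all genes tested.

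Ccl2, the chemokine that draws monocytes into tissue, was close to absent from YEJH-M1. It had 4.45, 1.92 and 1.01 normalised counts there and 9.39 to 74.2 (median 22.3) in the other libraries, with a log2 difference of -3.39 (standard error 0.349, edgeR adjusted p = 1.06e-05). The other lung lines varied among themselves, from 11.4 in YEJH-M5 to 57.1 in YEJH-M2. The parental line was low too, at 6.29, above YEJH-M1 but below every other lung line. The fat-pad lines all stood above the parental line, at up to 42.6. Tbc1d9, which holds a domain that acts on Rab GTPases, had 59.3, 54.7 and 55.8 against 195 to 498 (median 404), and Adgrg6, an adhesion G protein-coupled receptor, had 20.8, 20.2 and 20.3 against 58.7 to 191 (median 106). Slc41a2, a magnesium transporter, had 37.1, 28.8 and 27.4 against 94.2 to 136 (median 116). The remaining genes, by line mean in YEJH-M1 and range of the other lines, were the zinc finger genes Zfp334 (24.8, 114 to 174) and Zfp37 (21.9, 63.9 to 96.1), the Rac regulator Chn2 (8.68, 35.4 to 133) and the G protein subunit Gng11 (28.3, 83.8 to 249). Chn2 was low in the fat-pad lines too, at 15.8 to 34.4, and Gng11 was almost silent in the parental line, at 0.928.

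Chromosome 4 held many of the genes that lay apart below the other lines. Of these 155 genes, 84 are on chromosome 4, which holds 843 of the 13599 genes tested, whereas 2 of the 99 that lay apart above are there. Chromosome 4 genes had a median log2 difference of -0.30, which is 0.811 of the level in the other lines, and 87.2% were below 0. On this chromosome 438 genes were called lower (52.0%) and 13 higher, and they made up 43.7% of all genes called lower. Elsewhere 565 of 12756 genes were called lower (4.43%) and the median was 0.02. The chromosome was singled out after the medians were seen, its values are a description with no test, and DNA copy number was not measured.

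The shift was found in each library and against each line. For 581 well expressed genes of chromosome 4, the median log2 difference from the other lung lines of the same run was -0.28, -0.34 and -0.33 in the 3 YEJH-M1 libraries. In the 30 libraries of the other YEJH lung, fat-pad and parental lines it ran from -0.04 to 0.05. Against YEJH-M2, M3, M4 and M5 singly, the medians of the 843 genes tested were -0.28, -0.30, -0.30 and -0.32, and 286, 360, 271 and 380 of them were called lower. Without YEJH-M1 repeat 2, the only one in run A, 261 chromosome 4 genes were called lower against the mean.

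The chromosome was low along its length. Cut into 14 stretches of at least 40 genes in order of position, YEJH-M1 had medians of -0.44 to -0.26, and the other 10 YEJH lines had medians of -0.21 to 0.06. The value of -0.21 belongs to the parental line in the first stretch. Of the 581 genes, 560 (96.4%) were lower in YEJH-M1. The genes that lay apart included the kinases Jak1 (1546 normalised counts against 2065 to 2268) and Lyn (339.9 against 473 to 569.6), the histone deacetylase Hdac1 (556 against 767 to 866), the origin recognition subunit Orc1 (493 against 724 to 738) and the GTPase Cdc42 (5921 against 7371 to 7617), chosen as examples after their values were seen. The antioxidant enzymes Txn1 and Prdx1 and the matrix protein Tnc, named below, are on this chromosome as well. The 2 genes that lay apart above were Wnt4 and Klhdc7a, the latter at 243 against 52.1 to 139. Wnt4 entered the test through its YEJH-M1 libraries, as described below.

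On the other chromosomes the medians of YEJH-M1 were nearer to 0. They ran from -0.07 on chromosome 9 to 0.13 on chromosome 15. On chromosome 15 the other lung lines were themselves spread, from -0.19 in YEJH-M5 to 0.21 in YEJH-M2, so the value of YEJH-M1 lay inside their range. On chromosome 7 YEJH-M1 stood at 0.10, the other lung and fat-pad lines between -0.03 and 0.04, and the parental line at 0.25.

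**Figure D2:**
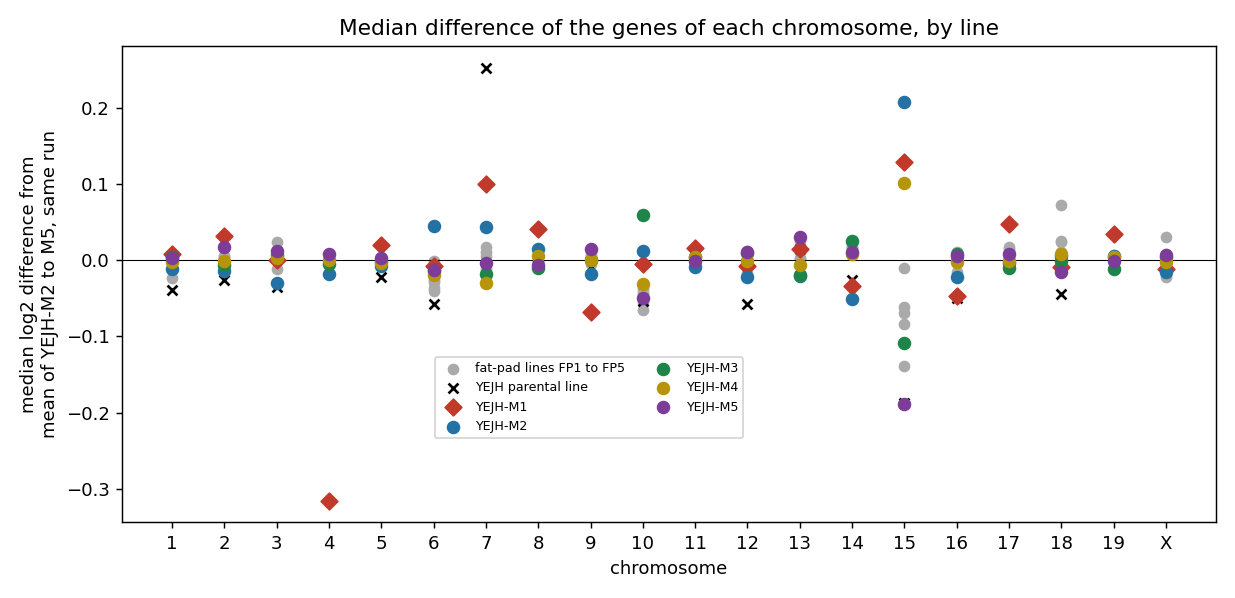
Median log2 difference of the genes of each chromosome from the mean of YEJH-M2 to M5 in the same run, for 9130 well expressed genes, with 1 point per line. YEJH-M1 (red diamond) stands at -0.32 on chromosome 4, where the other 10 lines lie between -0.02 and 0.01, and the lines are spread on chromosome 15.

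**Figure D3:**
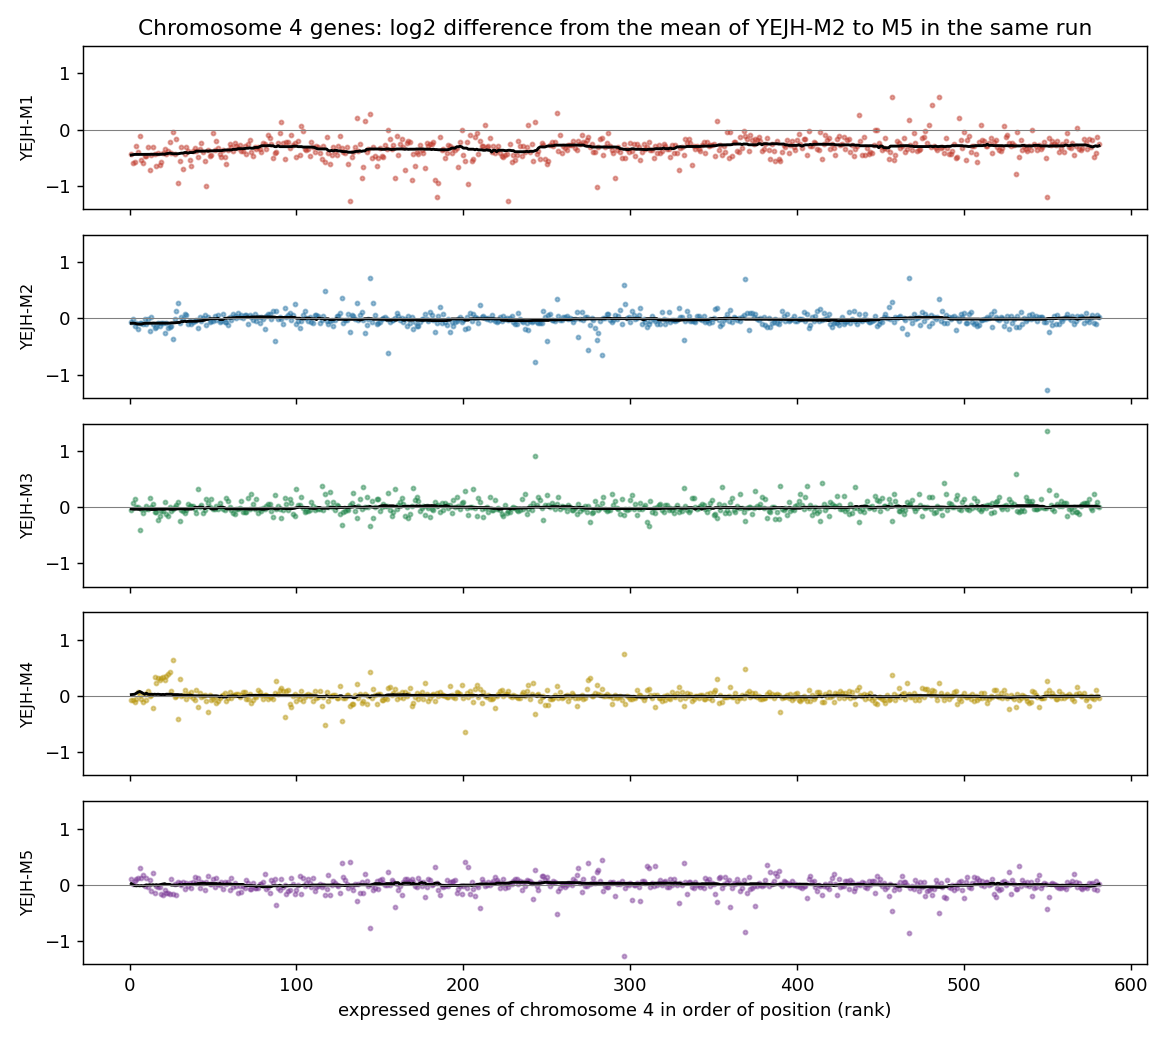
Log2 difference of 581 well expressed genes of chromosome 4 from the mean of YEJH-M2 to M5 in the same run, in order of position, with 1 panel per lung line. Points are genes and the black line is a running median over 41 genes, which stays below 0 along the whole of the YEJH-M1 panel and near 0 in the others.

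Within chromosome 4, a short run of neighbouring genes around Mtap was lower still. These genes were picked after their values were seen and are given as a description. Mtap (chr4:89055359-89099319, + strand), the phosphorylase that recycles methylthioadenosine for methionine and adenine salvage, had 1420.0, 1534 and 1370.1 normalised counts in YEJH-M1 and 2599.9 to 3035 (median 2811) in the other lung libraries. The 10 other YEJH lines held Mtap between 2482 and 3177 on average, and YEJH-M1 was at 51.3% of the mean of the other lung lines. Of 6 genes tested from Gm49890 to Gm12606, all non-coding but Mtap, the log2 differences were -1.32 to -0.76, and 3 of them (Wincr1, Gm12602 and Mtap) lay apart. Wincr1 had 69.7, 82.6 and 99.4 against 151 to 224 (median 199.9), and Gm12602 had 16.3, 22.1 and 22.3 against 35.5 to 73.3 (median 53.7). The next tested genes on either side were nearer to the rest of the chromosome, Klhl9 at 86.5% of the mean of the other lung lines and, past Cdkn2a, Cdkn2b at 87.6%. Cdkn2a, which encodes the cell cycle brakes p16 and p19Arf, was too low to judge, with 1.48, 4.80 and 11.2 normalised counts against 3.96 to 15.5 (median 9.61), and its log2 difference of -0.59 did not pass (edgeR adjusted p = 0.463). The library kit did not mark strand, so reads of overlapping genes such as Gm49891 and Wincr1 cannot be told apart.

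**Figure D4:**
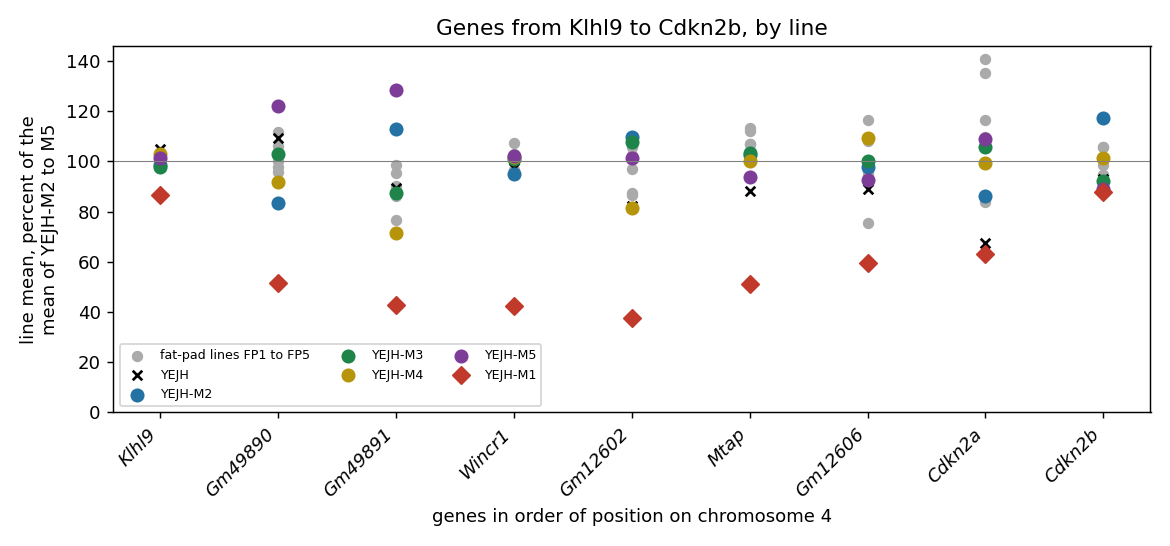
Line means of the 9 genes tested from Klhl9 to Cdkn2b on chromosome 4 as a percentage of the mean of YEJH-M2 to M5, in order of position, for the 11 YEJH lines. YEJH-M1 (red diamond) is at 37.7% to 59.5% in the 6 genes from Gm49890 to Gm12606 and at 86.5% and 87.6% in the outermost 2.

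Wnt signalling genes moved in both directions. Wnt ligands bind Frizzled receptors to stabilise beta-catenin or to guide cell movement, and secreted antagonists hold them back. Of 42 members of the list 26 were tested, and 10 were higher, 4 lower and 5 lay apart, against 15% of all genes called, and the median log2 difference was 0.10 (0.00 over all genes). Here and below, members of a list that are named without lying apart were chosen after their values were seen, as was Fzd7. Among ligands, Wnt10a is described above, and Wnt4 had 28.2, 15.4 and 21.3 normalised counts in YEJH-M1 against 1.11 to 9.11 (median 4.28) in the other libraries. Wnt4, counted among the 5, passed the filter on low counts through the YEJH-M1 libraries. Its low level elsewhere follows from how it entered the test, and its values are a description. Wnt5b, a ligand of the branch that does not use beta-catenin, went the other way, with 285, 199 and 231 against 512 to 886 (median 563). Wnt7b, another ligand, was higher by 0.45 on the log2 scale (edgeR adjusted p = 0.00032), at 11563 against 6682 to 10382 by line. Among receptors, Fzd7 had 1260.2 against 376 to 864 and lay apart, and Fzd2 had 391.9 against 171 to 283. Sfrp1, a secreted antagonist, was also above the range, with 494, 424 and 454 against 117 to 307 (median 183). Of the common targets, Axin2 fell by 0.41 on the log2 scale (edgeR adjusted p = 0.0477) while Notum rose by 0.58 (edgeR adjusted p = 0.00138), and YEJH-M1 was inside the range of the other lines in both.

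Notch genes showed a receptor above the range and both Jagged ligands below it. Notch receptors are cut after a ligand on a neighbouring cell binds them, and the freed part acts in the nucleus. Of 20 members 13 were tested, and 5 were higher, 2 lower and 3 lay apart (over all genes 15% were called, and 0.728% lay apart above and 1.14% below), with a median log2 difference of 0.11. The ligands Jag2 and Jag1 had 280.1, 186 and 199 against 332 to 1303 (median 836) and 882, 867 and 917 against 1148 to 1663 (median 1428) normalised counts. Notch4 was higher by 1.12 on the log2 scale (standard error 0.113, edgeR adjusted p = 8.66e-06) and the ligand Dll1 by 0.51 (standard error 0.0776, edgeR adjusted p = 0.000334). Nrarp, a target that damps the pathway, was higher by 0.45 (edgeR adjusted p = 0.00131), while the target Hes1 did not pass (543 against 507 to 522 by line, edgeR adjusted p = 0.761). In the TGF-beta and YAP list 7 of 34 members were higher and 6 lower (median 0.00). Inhbb, an activin subunit, lay apart with 645, 587 and 582 against 118 to 395 (median 270.2). The ligand Bmp7 was higher by 3.04 (standard error 0.249, edgeR adjusted p = 1.05e-06) at low levels, 45.2 against 1.18 to 23.6.

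Some chaperones of the endoplasmic reticulum were lower in YEJH-M1. When unfolded protein builds up there, the sensors Ire1, Perk and Atf6 switch on chaperones and degradation factors, and Perk also raises translation of the factor Atf4. Of 34 members of the list for Atf4 and the unfolded protein response, 13 were lower and 1 was higher (over all genes 7.38% and 7.63%), with a median log2 difference of -0.19, and 1 of the lower members, Sesn2, is on chromosome 4. Hspa5, the main chaperone BiP, had 11127, 11466 and 11608 normalised counts against 11795 to 15490.0 (median 14147), with groups that did not overlap and a log2 difference of -0.29 (standard error 0.0734, edgeR adjusted p = 0.0135). Hyou1, a second chaperone, differed by -0.50 (standard error 0.0611, edgeR adjusted p = 5.52e-05), and Hsp90b1, the chaperone Grp94, by -0.40 (standard error 0.0897, edgeR adjusted p = 0.00714). Sdf2l1, Dnajb9, Dnajc3, Pdia6, Manf and Edem1 were lower as well, and Edem1, which helps to clear misfolded glycoproteins, lay apart with 1439, 1417 and 1517 against 1671 to 2132 (median 1850.1). Slc7a11, a cystine importer driven by Atf4 and Nrf2, lay apart with 102, 161 and 119.7 against 192 to 316 (median 238). Atf4 itself was higher by 0.20 (edgeR adjusted p = 0.011), and the Atf4 targets Trib3, Asns, Chac1 and Ddit3 did not pass, with log2 differences of 0.14, -0.10, 0.11 and 0.23. The chaperones and folding factors Calr, Canx, Pdia4, Creld2 and Herpud1 did not pass either, with log2 differences of -0.29, -0.15, -0.16, -0.18 and -0.09. The median was below 0 against each other line, from -0.15 for YEJH-M2 to -0.30 for YEJH-M5. Without line YEJH-M5, and likewise without YEJH-M1 repeat 2, 7 members were called lower.

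Promoters of this group were searched for the endoplasmic reticulum stress element, which is bound by Atf6 with the factor NF-Y. The motif was CCAAT, any 9 bases and CCACG on either strand, with no mismatch, in RefSeq promoters of 300 bases (GRCm38.p6). Of the 13 lower members, 11 had a promoter in the table and 4 held the motif (Hspa5, Hsp90b1, Dnajc3 and Pdia6), as did 3 of 20 other members tested and 0.137% of all 27025 genes in the table. A match is a string of letters and not a shown site. The promoters of Hspa5 (chr2:34771840-34772139, + strand) and Hsp90b1 (chr10:86705395-86705694, - strand) are shown because both encode main chaperones of the compartment and hold the motif, with the matches in capitals.

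Hspa5: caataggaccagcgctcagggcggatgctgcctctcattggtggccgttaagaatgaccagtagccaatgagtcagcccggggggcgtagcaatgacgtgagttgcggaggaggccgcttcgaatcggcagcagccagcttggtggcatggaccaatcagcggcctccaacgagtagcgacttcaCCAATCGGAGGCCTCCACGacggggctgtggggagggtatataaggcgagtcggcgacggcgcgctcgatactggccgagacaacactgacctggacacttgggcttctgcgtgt
Hsp90b1: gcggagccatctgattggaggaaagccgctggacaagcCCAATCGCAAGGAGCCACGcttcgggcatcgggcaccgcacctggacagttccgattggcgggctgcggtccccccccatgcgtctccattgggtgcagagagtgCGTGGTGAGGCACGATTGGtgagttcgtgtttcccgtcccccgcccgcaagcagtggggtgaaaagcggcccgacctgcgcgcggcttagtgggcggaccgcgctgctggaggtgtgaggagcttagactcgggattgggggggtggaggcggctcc

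Genes of the hypoxia response and glycolysis were lower in part. Of 32 tested, 10 were lower and 0 higher (over all genes 7.38% and 7.63%, median of the list -0.15), and 3 of the 10, Car9, Eno1 and Slc2a1, are on chromosome 4. Pfkp, a glycolytic phosphofructokinase, had 626, 582 and 598 normalised counts against 695 to 888 (median 787) and a log2 difference of -0.39 (standard error 0.0653, edgeR adjusted p = 0.000747). Ndrg1, a stress gene raised in low oxygen, had 1948, 1614 and 1664 against 2044 to 2523 (median 2224), and the glucose transporter Slc2a1 1529.7, 1155 and 1219 against 1419 to 2253 (median 1599). The carbonic anhydrases Car9 and Car12 and the prolyl hydroxylase P4ha2 were lower than the mean, but YEJH-M1 lay inside the range of the other lines. The median of the list was below 0 against every other line, between -0.19 for YEJH-M3 and -0.05 for YEJH-M2. Without YEJH-M1 repeat 2, 3 members were called lower, and without repeat 3, 6 were.

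Cholesterol and fatty acid synthesis genes were higher than the mean of the other lines in part, with a count that varied with the line and library left out. Of 36 tested, 15 were higher and 0 lower (over all genes 7.63% and 7.38%, median of the list 0.18). They included Fdft1, which makes squalene (0.44 on the log2 scale, standard error 0.0796, edgeR adjusted p = 0.00135), Sqle, the next enzyme (0.34, standard error 0.0536, edgeR adjusted p = 0.000416), and Scd1, which desaturates fatty acids (0.48, standard error 0.0784, edgeR adjusted p = 0.000653). Against YEJH-M5 alone 21 members were higher, with a median of 0.43, against YEJH-M4 2 were higher and 0 lower (median 0.17), against YEJH-M3 6 and 3 (median 0.12) and against YEJH-M2 2 and 1 (median 0.00). Without line YEJH-M5, 2 members were higher than the mean, without YEJH-M1 repeat 1 it was 8, and without repeat 2 it was 4. Sqle had 3073 normalised counts in YEJH-M1, 3194 in YEJH-M2 and 1751 in YEJH-M5.

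**Figure D5:**
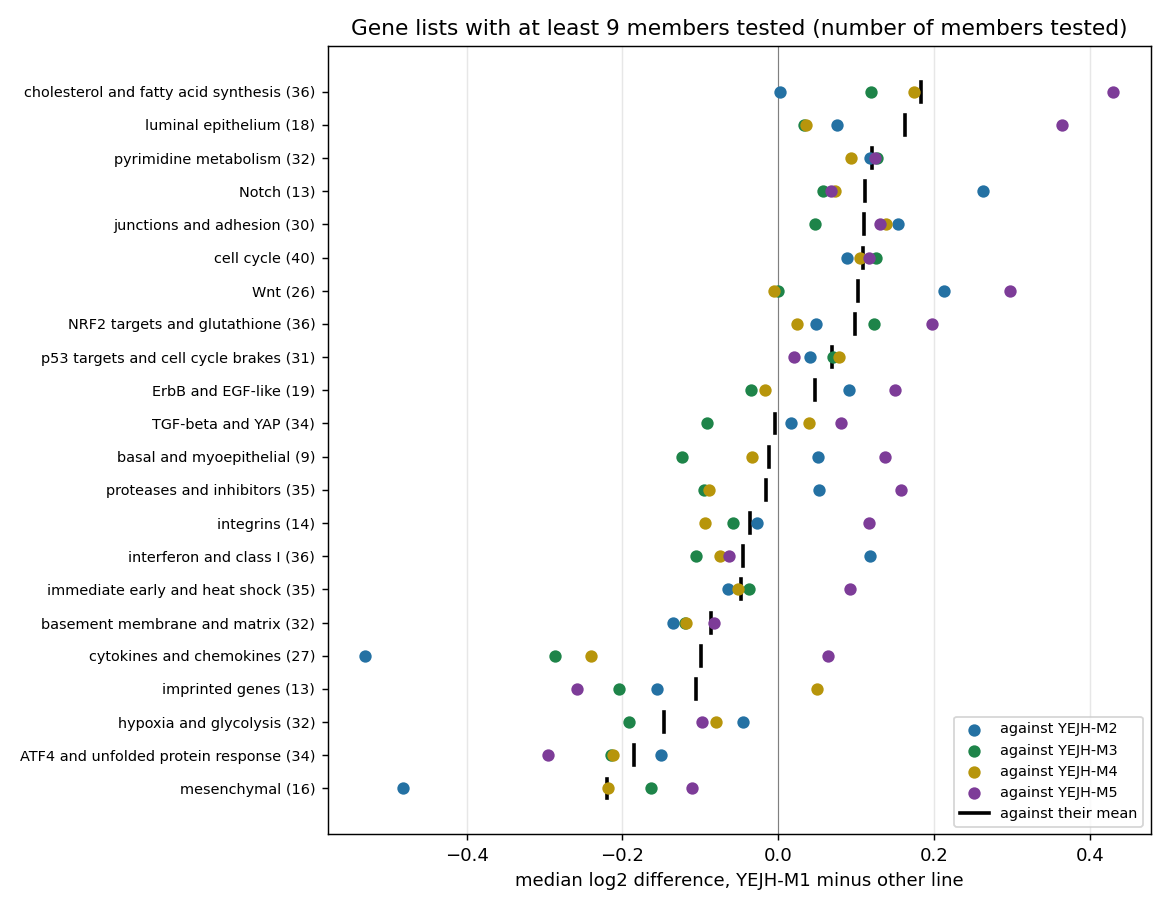
Median log2 difference of the members tested of each gene list, YEJH-M1 minus each other lung line (points) and minus their mean (black bar), with the number of members in brackets. The list for Atf4 and the unfolded protein response lies below 0 against all 4 lines, and that for cholesterol and fatty acid synthesis lies at 0.43 against YEJH-M5 and 0.00 against YEJH-M2.

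Of 30 luminal epithelial genes 18 were tested, and 5 were higher and 0 lower than the mean of the other lines (over all genes 7.63% and 7.38%, median of the list 0.16). Line by line, 5 were higher and 1 lower against YEJH-M2, 2 and 3 against YEJH-M3 (median 0.03), 3 and 1 against YEJH-M4 and 7 and 0 against YEJH-M5. Ehf, an Ets factor of epithelia, lay apart with 188, 209 and 195 normalised counts against 5.97 to 127 (median 49.6), next to YEJH-M4 at 121 and far above YEJH-M5 at 7.62. The tight junction gene Cldn3 had 5766, 4438 and 4498 against 3333 to 4395 (median 3886), and Epcam had 9649 against 8228 to 9016 by line and did not pass (edgeR adjusted p = 0.0908). The luminal count was sensitive to the libraries, with 2 higher and 1 lower without YEJH-M1 repeat 1, 3 higher without YEJH-M2 repeat 1 and 9 higher and 1 lower without YEJH-M3 repeat 1 or repeat 2. Of 9 basal genes tested, Dll1 and Krt14 were higher and Jag2 was lower, and Krt14 stood at 5777 against 2970.4 to 5794. Of 30 junction and adhesion genes, 11 were higher and 4 lower (median 0.11). The gap junction gene Gjb2 (2.06, edgeR adjusted p = 6.53e-05) and the adhesion gene Nectin4 (1.96, edgeR adjusted p = 8.45e-07) rose by more than the other members, and the desmosomal cadherin Dsg2 fell by 1.04 (edgeR adjusted p = 0.00691).

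Vimentin and N-cadherin led the lower mesenchymal genes. Of 16 tested, 4 were lower and 2 higher (over all genes 7.38% and 7.63%, median of the list -0.22). Vim, the intermediate filament of mesenchymal cells, had 2920.1, 3534 and 3513 normalised counts against 4419.9 to 8422 (median 5397), with no overlap and a log2 difference of -0.79 (standard error 0.0821, edgeR adjusted p = 1.11e-05). The parental line, at 3454, was near to YEJH-M1, and the fat-pad lines stood at 6931 to 10551. Cdh2, the cadherin of mesenchymal cells, had 765, 794 and 731 against 853 to 2485 (median 1399), and the repressors Snai1 and Zeb2 differed by -0.48 and -0.49 (edgeR adjusted p = 0.0212 and 0.0143). The homeobox gene Prrx1 went up by 2.19 (edgeR adjusted p = 2.65e-08) and was close to YEJH-M2, at 255 against 221. Zeb1 and Twist1 did not pass, at -0.34 and -0.19. The fibroblast list, whose sum was 6.30 CPM in YEJH-M1 and 2.70 to 5.25 in the other lines, had Pdgfra and Col1a2 higher, by 0.46 and 1.51 (edgeR adjusted p = 0.0367 and 0.0485), and its part in these results was not tested.

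The members of the matrix and protease lists that lay apart were below the other lines. The matrix gene Acan, described above, is on neither list and lay above them. Of 32 matrix genes tested 6 were higher and 7 lower (median -0.09), and of 35 proteases and inhibitors 4 were higher and 9 lower (median -0.02). Over all genes 7.63% were higher and 7.38% lower. The matrix glycoprotein Tnc, tenascin C, had 21214, 19404 and 18942 normalised counts against 25935 to 48641 (median 37808), and the collagen Col12a1 had 747, 686 and 742 against 1131 to 3234 (median 1860.2). Both lay apart, and in both the parental and fat-pad lines were above YEJH-M1. The protease Adamts4, which cleaves aggrecan, had 59.3, 39.4 and 62.9 against 105 to 189.6 (median 142), and the cathepsin Ctsz had 1279, 1028 and 1209 against 1551 to 2076 (median 1853). The matrix metalloproteases Mmp9, Mmp10 and Mmp13 had log2 differences of -1.05, -0.88 and -1.92 (edgeR adjusted p = 0.000377, 0.00109 and 0.0132). The plasminogen system genes Plat and Plaur had log2 differences of -0.51 and -0.45 (edgeR adjusted p = 0.0209 and 0.00183). Sparc was higher by 1.21 (edgeR adjusted p = 1.99e-07) with YEJH-M2 above YEJH-M1, at 1762 against 1109.8. Of 14 integrins tested, 2 were higher and 2 lower.

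Chemokines moved in both directions. Of 27 cytokine and chemokine genes, 7 were higher and 7 lower (over all genes 7.63% and 7.38%, median of the list -0.10). Cxcl5 had 1006, 657 and 1119.6 normalised counts in YEJH-M1 against 1426 to 5346 (median 2435) and lay apart, as did Ccl2, described above. Cxcl1 and Cxcl2, which bind the same receptor on neutrophils as Cxcl5, differed by -1.01 (standard error 0.184, edgeR adjusted p = 0.00148) and -1.03 (standard error 0.242, edgeR adjusted p = 0.00881). The related Cxcl3 went up by 1.76 (standard error 0.293, edgeR adjusted p = 0.000761), with YEJH-M3 above YEJH-M1 at 53.5 against 43.2. These 3 genes are neighbours on chromosome 5 with similar sequences, so reads may be shared between them. Il1a fell by 0.88 on the log2 scale (edgeR adjusted p = 2.36e-05) and Cx3cl1 rose by 0.79 (edgeR adjusted p = 0.000136). Of 36 interferon and class I genes 3 were higher and 2 lower, which is near to the share called of all genes.

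Cyclin D1 and several redox genes lay apart. Of 40 cell cycle genes tested, 8 were higher and 2 lower (over all genes 7.63% and 7.38%, median of the list 0.11). Ccnd1, cyclin D1, lay apart with 40795, 34725 and 38098 normalised counts against 27773 to 31032 (median 29129), with the fat-pad lines at 30262 to 31509 and the parental line at 37339. Etv5, a target of growth factor signalling, lay apart with 931, 1065 and 801 against 554 to 782 (median 654). Of 31 p53 targets and cell cycle brakes, 7 were higher and 3 lower, with the inhibitor Cdkn1a at 0.37 (edgeR adjusted p = 0.0155). Of 36 Nrf2 and glutathione genes, 7 were higher and 4 lower. The aldehyde dehydrogenase Aldh3a1 lay above, with 1164, 954 and 1259.6 against 231 to 802 (median 436). Txn1, thioredoxin, lay below, with 4822, 5256 and 5606 against 5942 to 7118 (median 6620.5), and so did Prdx1, a peroxiredoxin, with 7020.0, 8572 and 7315 against 8266 to 11171 (median 10315). The libraries of the 2 groups overlapped for Prdx1, and both genes are on chromosome 4. Nqo1, a common Nrf2 target, fell by 1.12 on the log2 scale (edgeR adjusted p = 2.62e-05).

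Upp1, the phosphorylase that breaks uridine down to uracil, is the gene that the study followed. In YEJH-M1 it had 562, 409 and 532 normalised counts, against 361 to 625 (median 488) in the other libraries, and the groups overlapped. By line the order was YEJH-M2 591, YEJH-M4 554, YEJH-M1 501, YEJH-M3 439 and YEJH-M5 373. The log2 difference from the mean of the other lines was 0.05 (standard error 0.0806, edgeR adjusted p = 0.744), so no difference was detected beyond the technical spread. Of 32 pyrimidine genes tested, 7 were higher and 1, the kinase Cmpk1 on chromosome 4, was lower (over all genes 7.63% and 7.38%, median of the list 0.12).

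The parental and fat-pad lines were not used to choose the 254 genes, but the YEJH-M1 levels set against them were. In 233 of the 254 genes (91.7%), YEJH-M1 lay beyond all 10 other YEJH lines, against 57.9% of the 7101 genes. The 254 genes were chosen for a clear gap of YEJH-M1, whereas the 7101 include gaps of any size. A higher share is therefore built into the choice, and these shares are a description and not a test. The parental line also lay beyond the other 4 lung lines, on the side of YEJH-M1, in 129 of the 254 (50.8%). Over the 7101 genes this share was 41.3%. In 123 of the 254 (48.4%) no fat-pad line lay on that side, against 44.3% of the 7101. All 84 chromosome 4 genes that lay apart below were among the 233. In the remaining genes a parental or fat-pad line reached or passed YEJH-M1. Pcsk6, a protease that activates growth factor precursors, had 1774, 1549 and 1494 normalised counts in YEJH-M1, 318 to 955 (median 599.7) in the other lung libraries and 1986 on average in the parental line. Tenm4, a large adhesion protein, had 492, 476 and 581, 33.3 to 273 (median 193) and 560.4. Adgrf5, an adhesion G protein-coupled receptor that lay below the range, had 102, 128 and 114, 293 to 462 (median 324) and 48.6. These 3 genes were chosen after their values were seen.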

How the data were processed

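RNA-seq of cultured cells was read from 1 table of raw read counts per gene, which the authors deposited for 45 libraries, and its 0 unmapped columns left nothing aside. The TruSeq v2 kit does not mark strand. Per the submitters' processing notes the tools were FastQC, HISAT2, SAMtools 1.2 and HTSeq, and the build is given there as GRCh38, although the table holds mouse Ensembl identifiers. Names and coordinates were therefore taken from the GRCm39 annotation, which matched 50764 of 54838 genes (92.6%), and promoters from RefSeq (GRCm38.p6).

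Counts of the 15 YEJH lung libraries were filtered (filterByExpr by line), scaled by TMM and fitted with edgeR 4.0.16 (quasi-likelihood, R 4.3.3), with a coefficient per line and a covariate for run. Benjamini-Hochberg adjustment ran over all genes tested, at a threshold of 0.05. A gene was apart where the fitted level of YEJH-M1 was above or below all 4 lines and the largest of the 4 p-values, adjusted, passed. With the line as the unit, counts were summed per line, and YEJH-M1 was assumed to vary like the others. Printed levels are counts scaled by TMM over the 33 YEJH libraries. The 581 and 9130 well expressed genes had a mean log2 CPM of at least 3.

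Named genes were first the 12 widest gaps each way among genes apart, protein-coding, with at least 50 normalised counts in a line and the same side in both runs. Up to 4 members of each list that lay apart were added without these further limits, together with Upp1. Of the 12 above, 1 is not reported here. Members and lists were chosen with earlier results of these data known. Alternatives used limma 3.58.1 and DESeq2 1.42.0, other filters and scalings, single runs, and left-out libraries, lines or a block for the repeat number. The scripts were tested on simulated data. Libraries of a line are technical repeats, so p-values measure the technical spread.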

Additional observations from a re-analysis of the deposited data

Results flagged for a closer look

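In 7 of 110 groups of 4 or 5 lines, 1 line stood farther from its nearest neighbour than Dixon's 95% critical value allows, and chance gives about 1 in 20. On chromosome 4 this was YEJH-M1, with a median log2 difference of -0.32 and the nearest lung line at -0.02. YEJH-M2 was the line on chromosome 3 at -0.030 and on chromosome 6 at 0.045, where the nearest lung lines were at 0.00 and -0.0075. Among the other 4 lung lines, Gng11 had 249 normalised counts in YEJH-M2 and 107 in the nearest line, so the gap of YEJH-M1 to the lowest of them does not rest on YEJH-M2. Among the fat-pad lines, Cdc42ep5 had 28.6 in YEJH-FP4 (nearest 17.9), Ehf had 18.5 in YEJH-FP5 (nearest 36.6) and Vim had 10551 in YEJH-FP5 (nearest 7841).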

How the results depend on the processing

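The 254 genes apart kept their side of the other lines under each alternative in which they were tested, and their number varied with the libraries. Genes called against the mean (2040) numbered 1303 in run A alone and 300 in run B alone, 590 with limma and a correlation within lines of 0.172, and 360 at 2-fold or more. Genes apart numbered 115 in run A, 6 in run B, 448 with all 45 libraries in the fit, 146 without chromosome 4 genes (chosen after seeing the data) and 69 at a gap of 2-fold or more. Leaving out 1 library gave 1280 to 2684 genes called and 113 to 477 apart. The number apart moved by over 1.5 times without YEJH-M1 repeat 2 (113) or 3 (144), YEJH-M2 repeat 1 (137), YEJH-M3 repeat 2 (477) or 3 (163), YEJH-M4 repeat 1 (141), 2 (152) or 3 (147) and YEJH-M5 repeat 3 (161). Leaving out 1 other line gave 1391 to 2639 called and 205 to 576 apart. Without the run-affected genes 278 lay apart, with DESeq2 335, without a low-count filter 354 and without the run covariate 224. With the line as the unit, DESeq2 called 288 genes and the fit with fat-pad lines 535, and each other alternative 0. Of 625 alternative values of the 45 named genes, 618 kept their call and direction, 1 lost its call in run A alone and 6 in run B alone.

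Not every pair of libraries with the same repeat number had residuals correlated above 0.1, and nothing in the labels ties the numbers together, so they were not taken as pairs. The mean correlation was 0.128 (-0.261 to 0.396) for the same number and -0.065 for other numbers. A block for the number gave 2618 genes called and 383 apart. No paired analysis was possible with the line as the unit because each line then gives 1 value.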

Other observations

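Several genes that lay apart in YEJH-M1 were nearly silent in the other lung lines, at levels too low for the named genes with the widest gaps. Sox5, Lmx1b, Pitx1, Nxf3 and Fam20c passed the filter on low counts through the YEJH-M1 libraries, so that their low levels elsewhere follow from how they entered the test, and their values are a description. Sox5, a transcription factor of cartilage and neural crest, had 22.2, 36.5 and 20.3 normalised counts in YEJH-M1 and 0 to 5.18 (median 1.07) in the other 12 libraries. The homeobox genes Lmx1b and Pitx1, which pattern the limb, had 14.8, 12.5 and 12.2 against 0 to 2.23 (median 0) and 19.3, 13.4 and 16.2 against 0 to 3.54 (median 0). Nxf3, an RNA export factor on the X chromosome, had 19.3, 20.2 and 19.3 against 0 to 2.22 (median 0). Fam20c, a kinase of secreted proteins, had 40, 24.0 and 32.5 against 1.0 to 12.2 (median 3.38). On the lower side, Fut9, a fucosyltransferase on chromosome 4, had 2.96, 7.68 and 4.06 against 25.6 to 53.1 (median 37.8), well past the shift of that chromosome, and Traf1, an adaptor of tumour necrosis factor receptors, had 83.0, 69.1 and 103 against 145 to 354 (median 222). The ephrin ligands Efna3 and Efna4 both lay above, at 29.8 against 9.82 to 13.7 and 283 against 185 to 204 by line. These genes were chosen after their values were seen.

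Growth factor genes were mixed. Of 19 members of the list for ErbB and EGF-like genes, 3 were higher and 5 lower (over all genes 7.63% and 7.38%). Fgfr1, a fibroblast growth factor receptor, differed by 0.75 on the log2 scale (edgeR adjusted p = 0.000156), and Hgf, the ligand of Met, by -0.96 (edgeR adjusted p = 0.0151). Of 35 immediate early and heat shock genes 4 were higher and 4 lower. Among 13 imprinted genes the one called was Mest, at 219.7 against 34.8 to 196 by line and a log2 difference of 1.12 (edgeR adjusted p = 9.78e-06). The single Hox gene tested did not pass. In the lists of other cell types, 2 of 3 leukocyte genes tested passed (S100a8 lower, Csf1r higher), as did 1 of 2 endothelial genes (Flt1, higher), 1 of 2 lung epithelial genes (Hopx, higher) and both fibroblast genes, and 0 fat cell genes were tested.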
